A study of Homo sapiens with 42 samples.

Results

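p53 is the transcription factor that links DNA damage, oncogene activation and other stress to growth arrest, repair and death, and it is held down by the ubiquitin ligase MDM2, itself a product of a p53 target gene. When damage kinases modify p53 it escapes MDM2, binds response elements near its target genes and raises their transcription. In senescent fibroblasts this programme is best known for CDKN1A, which encodes the cyclin-dependent kinase inhibitor p21. The 34 p53 target genes described here were taken by symbol from a fixed list among the 28266 gene symbols in the count table, and they fell into 5 groups by the role of the product: p53 feedback (5 genes), cell cycle arrest and growth signalling (7), DNA repair and nucleotide supply (8), metabolism, mitochondria and stress (8), and secreted and membrane signalling (6). The rule was a list of names and used no measured value, but the genes were chosen with earlier results of these data known. Every one of the 34 passed the filter on low counts.

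Poly(A) RNA was sequenced from human lung fibroblasts in which COPB2, a subunit of the COPI vesicle coat, was depleted. IMR90 ER:RAS cells carry a fusion of oncogenic RAS that 4-hydroxytamoxifen (4OHT) activates, and they received DMSO or 100 nM 4OHT, which leads to oncogene-induced senescence (OIS). IMR90 cells without the fusion received DMSO or 50 µg/ml bleomycin, an agent that breaks DNA, for 24 h. After 7 days of culture, doxycycline at 1 µg/ml switched on a control shRNA, COPB2 shRNA 1 or COPB2 shRNA 2 for 72 h, so that all 12 groups carried an inducible shRNA and had doxycycline, and RNA was collected at day 10. Each ER:RAS group held 3 libraries and each IMR90 group 4. Both arms differ in cell line, agent and dose at once, so that RAS, 4OHT and the line cannot be told apart, and the 4OHT comparison had no arm of IMR90 cells without the fusion. In bulk RNA, fewer cells of a kind and less RNA per cell cannot be told apart.

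Libraries held between 13148194 and 23597310 counts. The fusion transcript separated the lines, with 1438 to 2945 CPM (counts scaled to a common library size) of ESR1 in the 18 ER:RAS libraries and at most 0.633 in the 24 IMR90 libraries. COPB2 had 267 to 620 CPM across 14 control shRNA libraries and 33.9 to 122 CPM across 28 COPB2 shRNA libraries. The proliferation marker MKI67 fell by 6.65 on the log2 scale in OIS and by 3.05 after bleomycin. All 12 fibroblast markers were detected, summing to 9186 to 31028 CPM, whereas 10 markers of epithelial, endothelial and immune cells summed to 2.32 to 14.9 CPM. Both lists moved with the treatments: of the fibroblast markers 1 rose and 7 fell in OIS and 10 fell after bleomycin, with control shRNA sums of 18567 to 29344 CPM with 4OHT against 20968 to 29873 with DMSO, and of 13170 to 23309 CPM after bleomycin against 24936 to 31028. Of the other markers PECAM1, CDH5 and VWF were called higher in OIS, where the sums were 9.85 to 12.6 CPM against 2.55 to 4.88. After bleomycin CDH1, PECAM1 and PTPRC were called higher and VWF lower, with sums of 5.34 to 7.37 CPM against 4.94 to 5.69. KRT5 and CD3E had no count in these ER:RAS libraries. The part of these markers in the results was not tested.

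The p53 response element is a pair of half-sites of 10 letters, each with a core of 4 letters that starts with C and ends with G. It was searched for in RefSeq promoter windows, from 250 bases before to 50 bases after each transcription start on GRCh38.p14, on both strands, with a spacer of at most 1 base and at most 3 mismatches outside the cores. Windows were found for 24 of the 34 genes. Of their 35 windows 5 held the element (14.3%), against 288 of all 35116 windows (0.82%). The 5 are shown because their letters match the element of the factor that names the genes. The genes were listed as p53 targets, so their share is no independent sign of p53 binding. SESN1, RPS27L and GDF15 matched with the 3 mismatches allowed, and AEN with 2. Capitals mark both cores, and each line runs 5′ to 3′ on the strand of the gene.
SESN1, chr6:109009018-109009037, minus strand: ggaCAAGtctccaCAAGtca
DDB2, chr11:47214979-47214999, plus strand: gaaCAAGccctgggCATGttt
RPS27L, chr15:63157527-63157546, minus strand: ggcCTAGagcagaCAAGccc
AEN, chr15:88621306-88621325, plus strand: gggCTTGcccgggCATGtgg
GDF15, chr19:18386186-18386205, plus strand: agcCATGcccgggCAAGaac
The DDB2 element, 5 bases after a start, matched without a mismatch, which 7 of all windows did. Those of SESN1, RPS27L and AEN began 49, 69 and 34 bases before a start, and that of GDF15 began 28 bases after one. A match of letters is a description, and many p53 elements lie in introns or farther upstream, outside these windows.

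Before any treatment effect, the DMSO cells of both lines were compared with the control shRNA. None of the 34 genes differed between the lines in edgeR's quasi-likelihood test with Benjamini-Hochberg adjustment over all genes (53 of 15299 genes called, 0.346%). An unadjusted p under 0.05 was found for 7 of the 34 (11.5% of all genes), and DESeq2 called 0 of them as well. The median log2 difference, ER:RAS minus IMR90, was 0.29 for the 34 genes, where that of all genes was -0.002.

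Bleomycin raised 25 of the 34 genes and lowered none, whereas OIS raised 5 and lowered 7. For comparison, 31.2% of the 14783 genes tested were called after bleomycin (15.4% higher and 15.8% lower). Of the 14297 genes tested in OIS, 35.7% were called (15.5% higher and 20.2% lower). In both directions the OIS counts of the 34 genes were near these shares of all genes. The median log2 fold change of the 34 genes was 0.92 after bleomycin, where that of all genes was -0.01, and -0.34 in OIS, where that of all genes was -0.08. Libraries of the senescent and the DMSO group did not overlap for 22 of the 34 genes after bleomycin (28% of all genes tested) and for 14 in OIS (38.5%). The difference between both responses was then tested directly in a fit of all 42 libraries. It was called for 17 of the 34 genes (20.3% of all 15299 genes), with the OIS response lower for 15 (12.1% of all genes) and higher for 2, PLK3 and TNFRSF10D (8.14%). The OIS calls depended on the fit: with only the 6 libraries compared 3 genes rose and none fell, all 7 falls keeping their sign and missing the test (log2 fold changes from -1.09 to -0.47, adjusted p from 0.0516 to 0.285), and with a block for the replicate number 7 rose and 14 fell. The differences were 15 and 25 in these fits. The shares of all genes called in these fits are not given here, so the shifts are not particular to the 34 genes.

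**Figure D1:**
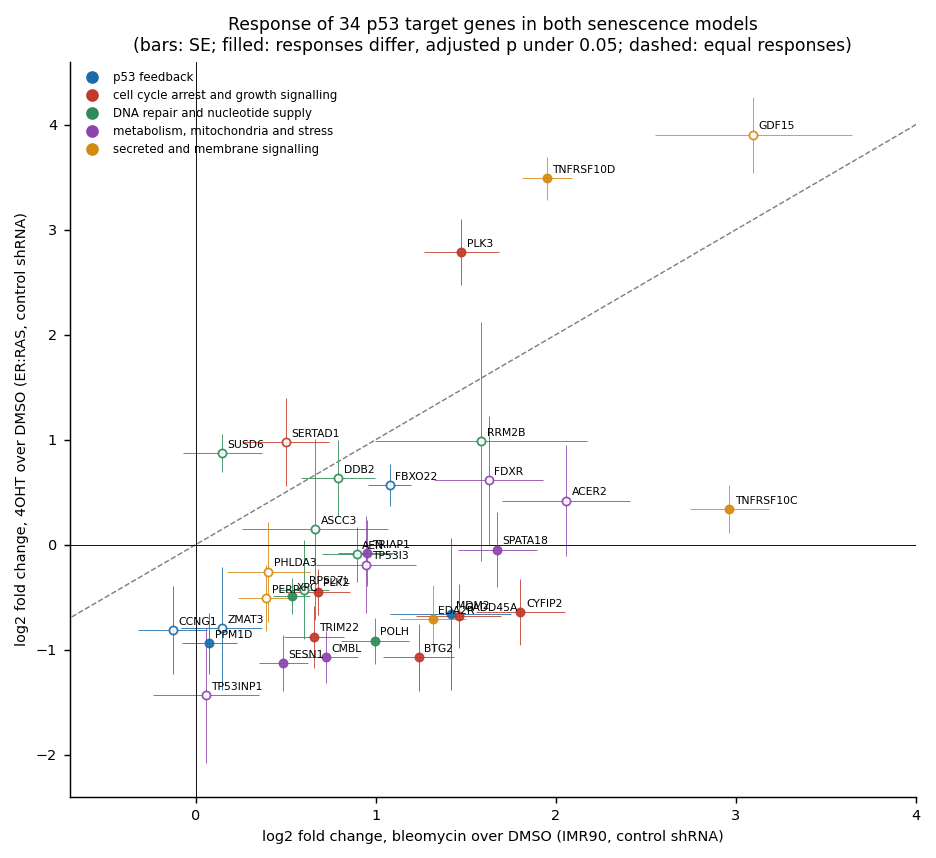
Response of the 34 p53 target genes to OIS (vertical axis) against their response to bleomycin (horizontal axis), both as log2 fold changes over DMSO with the control shRNA, with bars of 1 SE, colours for the role of the product and filled points where the 2 responses differed at an adjusted p under 0.05. Most points lie to the right of 0 and below the dashed line of equal responses, and GDF15, TNFRSF10D and PLK3 stand apart at the top.

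Sorted by both calls, 6 genes rose after bleomycin and fell in OIS, a pattern that 136 of the 14010 genes tested in both lines had (0.971%). They were BTG2, CMBL, POLH, SESN1, TRIM22 and XPC. Another 4, FBXO22, GDF15, PLK3 and TNFRSF10D, rose in both (6.25% of all genes), and 15 rose after bleomycin without a call in OIS (6.26%). SUSD6 was called only in OIS, higher, and PPM1D only in OIS, lower. The remaining 7, ASCC3, CCNG1, PERP, PHLDA3, SERTAD1, TP53INP1 and ZMAT3, passed the test in neither model. A call in one model and not in the other is not itself a difference, and the tests of the difference are given gene by gene.

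In the feedback group, 2 of 5 genes rose after bleomycin (15.4% of all genes) and 1 rose and 1 fell in OIS (15.5% and 20.2%). The same shares of all genes stand beside the counts by role and by list that follow. The roles hold 5 to 8 genes and were not tested against each other. MDM2 (chromosome 12, 68808172 to 68850686 on GRCh38.p14) encodes the ligase that marks p53 for degradation. Its level was 44.3, 79.8, 117 and 76.9 CPM in DMSO-treated IMR90 cells and 182, 115, 298 and 278 CPM after bleomycin. Of the bleomycin libraries, 3 stood above every DMSO library, and replicate 2 lay just under the highest of them. The log2 fold change was 1.42 ± 0.34 (SE, n = 4 against 4, edgeR adjusted p = 0.00257). In the ER:RAS line MDM2 had 70.5, 30.2 and 101 CPM with DMSO and 18.1, 41.8 and 76 CPM with 4OHT. The groups overlapped throughout, with a log2 fold change of -0.66 ± 0.72 (n = 3 against 3, adjusted p = 0.529). The difference of the responses was -2.02 ± 0.73 (adjusted p = 0.0444), a call that leaving out 1 library ended in 9 of 14 fits (adjusted p from 0.0631 to 0.15). Those fits left out 4OHT replicate 1 or 2, ER:RAS DMSO replicate 1 or 3, bleomycin replicate 3 or 4, or IMR90 DMSO replicate 1, 2 or 4.

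PPM1D, the phosphatase WIP1 that reverses the activating phosphorylation of p53, was the feedback gene that fell in OIS. Its levels were even in the DMSO group of the ER:RAS cells, at 20.4, 20.3 and 21.2 CPM, and 8.48, 12.6 and 13.2 CPM with 4OHT. No library overlapped, and PPM1D fell by 0.94 on the log2 scale (SE 0.29, adjusted p = 0.0189). After bleomycin 28.7, 30.1, 38.2 and 29.8 CPM stood against 26.4, 29.95, 30.2 and 30.7 CPM with DMSO, which overlapped. The responses differed by -0.96 ± 0.28 (adjusted p = 0.0112). The OIS call was lost without 4OHT replicate 1 (log2 fold change -0.71, adjusted p = 0.0789) or DMSO replicate 3 (-0.84, adjusted p = 0.0525).

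FBXO22, an F-box protein whose ligase acts on p53 and on histone demethylases, was the feedback gene that rose in both models. It went from 40.4, 38.3, 49.7 and 35.3 CPM with DMSO to 85.8, 78.8, 101 and 86.6 CPM after bleomycin, without overlap (log2 fold change 1.08 ± 0.12, adjusted p = 7.5e-07). The ER:RAS cells went from 49.5, 43 and 59.8 to 94.7, 78.8 and 70.8 CPM, also without overlap (0.57 ± 0.20, adjusted p = 0.0358). The OIS call was lost in 3 of the 6 fits without 1 library (4OHT replicate 1, DMSO replicate 1 or DMSO replicate 2, adjusted p from 0.067 to 0.0868). CCNG1, cyclin G1, which directs a phosphatase to MDM2, had log2 fold changes of -0.81 ± 0.42 in OIS and -0.13 ± 0.19 after bleomycin. ZMAT3, an RNA-binding zinc finger protein, had -0.80 ± 0.59 and 0.14 ± 0.23. Neither was called in any of the 3 tests.

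Among the arrest and growth signalling genes, 6 of 7 rose after bleomycin, and in OIS 1 rose and 2 fell. The difference of the responses was called for 6 of the 7 (20.3% of all genes). BTG2 encodes an antiproliferative cofactor of mRNA deadenylation. With bleomycin it had 119, 111, 118 and 76.1 CPM against 61.2, 36.9, 41 and 37.3 CPM with DMSO, so every treated library was above every control (log2 fold change 1.24 ± 0.20, adjusted p = 5.35e-05). With 4OHT it had 42.2, 29.5 and 18.1 CPM against 55.3, 74.1 and 45.9 CPM, so every treated library was below every control (-1.07 ± 0.32, adjusted p = 0.0155). The responses differed by -2.23 ± 0.39 (adjusted p = 6.39e-05). The OIS call was lost without 4OHT replicate 2 or 3 or without DMSO replicate 1 or 2 (log2 fold changes from -1.05 to -0.77, adjusted p from 0.0532 to 0.101), and no such fit changed the sign.

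GADD45A, a stress sensor that binds cyclin-dependent and MAP kinase partners, rose after bleomycin from 48, 46.4, 71.8 and 49.1 CPM to 130, 185, 165 and 127 CPM. The groups were apart, and the log2 fold change was 1.46 ± 0.24 (adjusted p = 6.28e-05). Among ER:RAS libraries 67.4, 45.3 and 34.5 CPM with 4OHT overlapped with 64.4, 49.3 and 102 CPM with DMSO (-0.68 ± 0.31, adjusted p = 0.0982). The difference was -2.04 ± 0.39 (adjusted p = 0.000217).

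CYFIP2, a subunit of the actin-regulating WAVE complex, rose after bleomycin by 3.49-fold. Its DMSO libraries had 41.6, 18.8, 20.7 and 21.5 CPM and its bleomycin libraries 97.8, 101, 87.7 and 78.1 CPM, with replicate 1 of DMSO far above the other 3 controls and still below every treated library (log2 fold change 1.80 ± 0.25, adjusted p = 9.14e-06). The ER:RAS groups overlapped, at 40.6, 51.9 and 25.2 CPM with DMSO and 39.7, 24.3 and 16.8 CPM with 4OHT (-0.65 ± 0.32, adjusted p = 0.128). Its difference of -2.37 ± 0.42 (adjusted p = 7.51e-05) was the second lowest of the 34 genes, after TNFRSF10C.

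PLK2 and PLK3 are polo-like kinases of the stress response, and they parted between the models. PLK3 rose in OIS from 34.2, 44.7 and 29.4 CPM to 394, 255 and 157 CPM, 6.90-fold with no overlap (log2 fold change 2.79 ± 0.32, adjusted p = 6.23e-06). After bleomycin it rose from 32.5, 19.1, 21.7 and 21.3 CPM to 88, 61.1, 64.5 and 53.7 CPM, 2.78-fold (1.48 ± 0.21, adjusted p = 1.31e-05). The OIS response was larger by 1.40 ± 0.38 on the log2 scale (adjusted p = 0.00705), and without 4OHT replicate 1, the highest library, this was 1.02 (adjusted p = 0.0518). PLK2 rose after bleomycin, with 148, 152, 155 and 161 CPM under DMSO and 212, 219, 239 and 338 CPM under bleomycin (0.68 ± 0.18, adjusted p = 0.00548). Its OIS value was -0.45 ± 0.22 (adjusted p = 0.13), with overlapping groups, and the difference was called (-1.07 ± 0.27, adjusted p = 0.00361).

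TRIM22, an interferon-inducible ligase, rose after bleomycin from 53, 62.6, 72.7 and 63.1 CPM to 83.7, 93.6, 135 and 94.6 CPM (0.66 ± 0.17, adjusted p = 0.00435). In OIS it fell from 64.8, 44.3 and 68.2 CPM to 30.7, 40.05 and 33.3 CPM (-0.88 ± 0.30, adjusted p = 0.0303). In neither line did the groups overlap. The difference was -1.46 ± 0.31 (adjusted p = 0.000724). The OIS call was lost in 5 of the 6 fits without 1 library (all but that without DMSO replicate 2, adjusted p from 0.0501 to 0.121). SERTAD1, a cofactor of CDK4 and E2F, had 0.98 ± 0.42 in OIS and 0.50 ± 0.24 after bleomycin, and neither passed the test.

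Several of these genes also answer to other pathways, so lists for those pathways were counted beside them. Of 13 immediate early genes of the ERK pathway, which also regulates PLK2, PLK3 and BTG2, 12 rose in OIS and 8 after bleomycin, and none fell. Of 10 interferon response genes, the pathway of TRIM22, 7 fell in OIS and 3 after bleomycin, and none rose. Of 12 genes of the PERK and ATF4 stress response, which can induce GDF15 and GADD45A, 3 rose and 1 fell in OIS, and 2 rose and 2 fell after bleomycin. The 2 that rose after bleomycin were ATF3 and SESN2, and ATF4 was among those that fell. SESN2 is also on the second list of p53 targets counted at the end. The part of these pathways in the results was not tested.

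**Figure D2:**
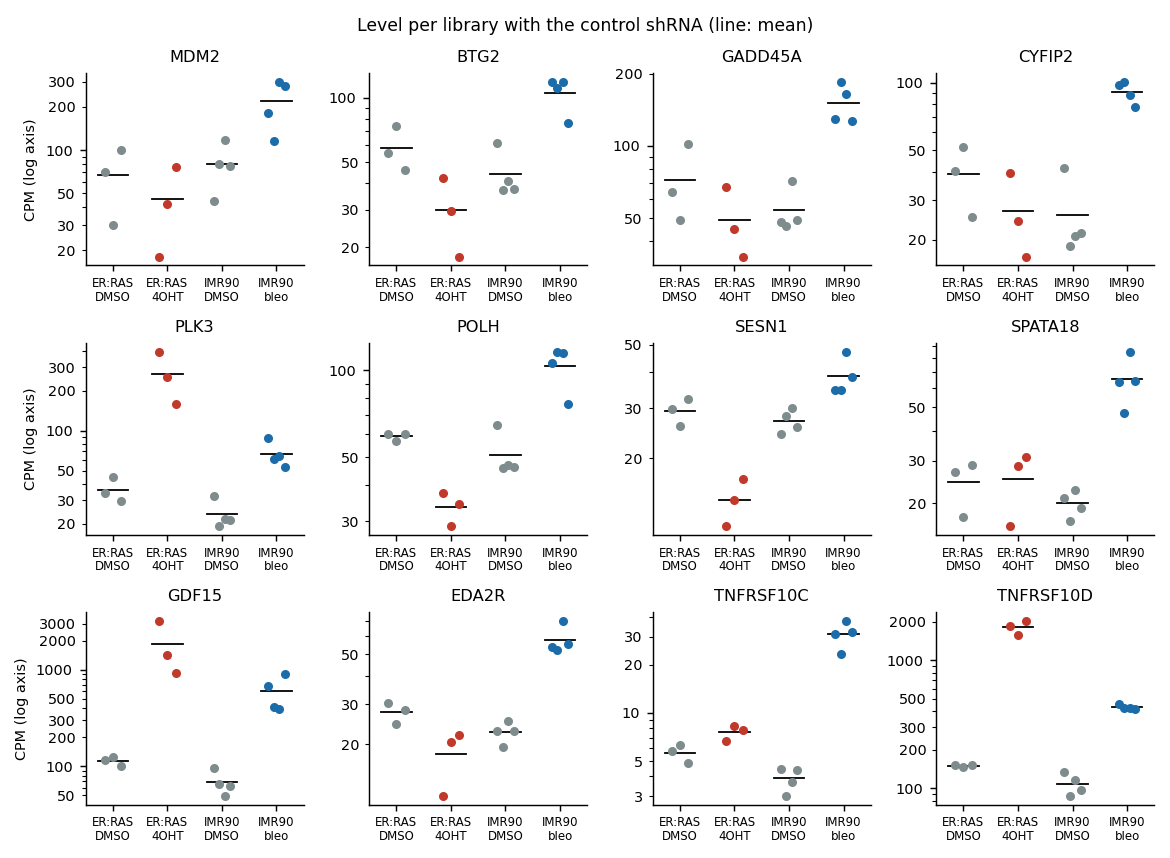
Level in CPM (log axis) of 12 p53 target genes in each library with the control shRNA, for DMSO and 4OHT in ER:RAS cells and DMSO and bleomycin in IMR90 cells, with a line at the mean of each group. For BTG2, POLH and SESN1 the 4OHT points lie below their DMSO points and the bleomycin points above theirs, whereas PLK3, GDF15 and TNFRSF10D lie above DMSO in both.

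Of the 8 DNA repair and nucleotide supply genes, 6 rose after bleomycin, while in OIS 1 rose and 2 fell. POLH (chromosome 6, 43576185 to 43620523) encodes the polymerase that copies past ultraviolet lesions. It rose after bleomycin from 64.6, 45.7, 47 and 46.2 CPM to 106, 116, 115 and 76.5 CPM (log2 fold change 1.00 ± 0.19, adjusted p = 0.000343). It fell in OIS from 60.3, 56.9 and 60.2 CPM to 37.6, 28.8 and 34.5 CPM (-0.91 ± 0.22, adjusted p = 0.00403). The groups were apart in both lines, and the responses differed by -1.84 ± 0.29 (adjusted p = 1.46e-05). With a correction for GC content and length the POLH fall in OIS was -0.50 and lost its call (adjusted p = 0.154).

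XPC, which recognises helix-distorting lesions at the start of nucleotide excision repair, showed the same pattern at a smaller size. It had 116, 109, 128 and 123 CPM after bleomycin against 83.8, 74.2, 83.9 and 79.8 CPM with DMSO (0.53 ± 0.10, adjusted p = 0.000434). It had 68, 56 and 59.6 CPM with 4OHT against 82.7, 87.2 and 71.3 CPM with DMSO (-0.49 ± 0.17, adjusted p = 0.034). No libraries overlapped in either line, and the difference was -0.96 ± 0.17 (adjusted p = 7.33e-05). The fall in OIS passed the test narrowly: it was lost in 5 of the 6 fits without 1 library (all but that without 4OHT replicate 1, log2 fold changes from -0.49 to -0.37, adjusted p from 0.0564 to 0.178).

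DDB2, the partner of XPC in lesion recognition and the gene with the element free of mismatches, rose after bleomycin from 54.6, 26, 26.3 and 34.1 CPM to 66.6, 60.2, 64.7 and 56.9 CPM (0.79 ± 0.21, adjusted p = 0.00546). In ER:RAS cells it had 41.4, 64.7 and 31.1 CPM with DMSO and 110, 72.3 and 45 CPM with 4OHT, which overlapped (0.63 ± 0.36, adjusted p = 0.201). The difference was -0.09 ± 0.43 (adjusted p = 0.934), so the split called for XPC and POLH was not called for DDB2. DDB2 was not tested against XPC or POLH. AEN, an exonuclease, and RPS27L, a ribosomal protein, both with an element before a start, rose after bleomycin by 0.90 ± 0.19 and 0.60 ± 0.14. Their OIS values were -0.09 ± 0.26 and -0.43 ± 0.47, and neither difference was called (adjusted p = 0.0588 and 0.109).

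RRM2B, the p53-induced subunit of ribonucleotide reductase, was the most variable of the group. Its level with bleomycin was 173, 36.2, 343 and 210 CPM against 19.3, 67.8, 98.7 and 60.1 CPM with DMSO, and with 4OHT 22.2, 104 and 197 CPM against 57.8, 9.19 and 85.5 CPM. Groups overlapped in both lines. The bleomycin call (1.59 ± 0.59, adjusted p = 0.0439) was lost in 6 of the 8 fits without 1 library (all but those without bleomycin replicate 2 or DMSO replicate 3, adjusted p from 0.067 to 0.167). ASCC3, a helicase that unwinds alkylated DNA, spread as widely and was not called in OIS (0.15 ± 0.86) or after bleomycin (0.66 ± 0.41).

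SUSD6, a membrane protein that slows cell growth, was the only one of the 34 genes called higher in OIS and not called after bleomycin. It had 100, 91.3 and 112 CPM with 4OHT against 50.7, 67 and 39 CPM with DMSO, without overlap (0.87 ± 0.18, adjusted p = 0.00142). After bleomycin it had 62.5, 65.8, 55.5 and 82.8 CPM against 67.2, 57.5, 52.1 and 59 CPM, which overlapped (0.15 ± 0.22, adjusted p = 0.666). The difference of 0.78 ± 0.29 just missed the threshold (adjusted p = 0.0556). It passed without DMSO replicate 2 of the ER:RAS cells (1.00, adjusted p = 0.0173) or without bleomycin replicate 4 (0.90, adjusted p = 0.0317).

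In the metabolism, mitochondria and stress group, 7 of 8 genes rose after bleomycin, none rose in OIS and 2 fell. SESN1, a sestrin that restrains mTORC1 through nutrient sensing, carries the element shown on the minus strand. It rose after bleomycin from 24.4, 28, 30.04 and 25.8 CPM to 34.8, 34.8, 47.3 and 38.5 CPM (0.49 ± 0.14, adjusted p = 0.00821). It fell in OIS from 29.8, 25.9 and 32.2 CPM to 11.6, 14.3 and 17 CPM (-1.13 ± 0.27, adjusted p = 0.0035). The groups were apart in both lines, and the responses differed by -1.56 ± 0.25 (adjusted p = 2e-05). The correction for GC content and length left the SESN1 fall in OIS at -0.89, without a call (adjusted p = 0.0568).

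CMBL, a hydrolase, had 99.5, 106, 97.4 and 70.9 CPM after bleomycin against 74.5, 50.0, 43.8 and 53.4 CPM with DMSO (0.73 ± 0.18, adjusted p = 0.00306). The lowest treated library lay just under the highest control. With 4OHT its 3 libraries had 35, 35.2 and 34.5 CPM, all below the 67.7, 94.8 and 45.5 CPM of DMSO (-1.07 ± 0.25, adjusted p = 0.00312). The difference was -1.74 ± 0.32 (adjusted p = 0.000112).

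SPATA18, a mitochondrial quality control protein, rose 3.19-fold after bleomycin, from 21.1, 16.9, 22.8 and 19.2 CPM to 63.9, 47.5, 85.1 and 64.4 CPM (1.67 ± 0.22, adjusted p = 5.99e-06). Its ER:RAS groups overlapped, at 26.9, 17.6 and 28.7 CPM with DMSO and 16.1, 28.5 and 31.2 CPM with 4OHT (-0.05 ± 0.36, adjusted p = 0.94), and the difference was -1.66 ± 0.38 (adjusted p = 0.00155). ACER2, a ceramidase of the Golgi, was the lowest of the 34 genes, at 1.42 to 2.39 CPM in DMSO-treated IMR90 cells, and rose 4.16-fold to 4.42 to 12.2 CPM after bleomycin (2.06 ± 0.35, adjusted p = 0.000122). Its OIS value was 0.42 ± 0.53 and its difference of -1.58 ± 0.59 was not called (adjusted p = 0.0559).

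TRIAP1, which carries lipids within mitochondria, rose after bleomycin, with 24.7 to 36 CPM under DMSO and 46.7 to 70.5 CPM under bleomycin (0.95 ± 0.16, adjusted p = 8.77e-05). Its OIS value was -0.08 ± 0.32 and the difference -0.94 ± 0.32 (adjusted p = 0.036). That call was lost in 8 of 14 fits without 1 library: 4OHT replicate 2 or 3, ER:RAS DMSO replicate 1 or 3, bleomycin replicate 1 or 3, and IMR90 DMSO replicate 2 or 4 (log2 values from -0.98 to -0.56, adjusted p from 0.0503 to 0.236). FDXR, the mitochondrial ferredoxin reductase, rose after bleomycin, with 22.4 to 49.7 CPM under DMSO and 76.2 to 121 CPM under bleomycin (1.63 ± 0.30, adjusted p = 0.000274), whereas with 4OHT its replicates ran from 21.5 to 176 CPM around DMSO values of 42.6 to 64.4 CPM. TP53I3, a quinone oxidoreductase, rose after bleomycin (0.95 ± 0.28, adjusted p = 0.0119) and had -0.19 ± 0.46 in OIS. TP53INP1, a regulator of autophagy, was called in neither model (-1.44 ± 0.64 in OIS and 0.06 ± 0.30 after bleomycin).

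The secreted and membrane group held the largest changes of the set. GDF15, a secreted stress cytokine with an element just after its start, rose 14.97-fold in OIS, from 116, 124 and 100 CPM to 3188, 1429 and 916 CPM (3.90 ± 0.36, adjusted p = 8.15e-07). After bleomycin it rose 8.56-fold, from 96.5, 64.8, 49.5 and 62.6 CPM to 672, 407, 389 and 913 CPM (3.10 ± 0.55, adjusted p = 0.000156). Treated and control libraries were far apart in both lines, and the difference between the responses was 0.90 ± 0.68 (adjusted p = 0.409).

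TNFRSF10C and TNFRSF10D are neighbouring genes for decoy receptors of the death ligand TRAIL, and they split between the models. TNFRSF10D rose 11.2-fold in OIS, from 153, 147 and 151 CPM to 1833, 1561 and 2020 CPM (3.49 ± 0.21, adjusted p = 7.6e-09). After bleomycin it rose 3.87-fold, from 135, 87.6, 116 and 97.5 CPM to 455, 424, 420 and 419 CPM (1.95 ± 0.14, adjusted p = 1.67e-09). No libraries overlapped in either line, and the OIS response was larger by 1.61 ± 0.21 (adjusted p = 5.78e-07).

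TNFRSF10C had 5.81, 6.27 and 4.86 CPM with DMSO and 6.68, 8.33 and 7.79 CPM with 4OHT in ER:RAS cells, which did not overlap and yet gave no call (0.34 ± 0.23, adjusted p = 0.28). In IMR90 cells it rose 7.80-fold, from 4.49, 3.03, 3.67 and 4.42 CPM to 31.3, 23.5, 37.7 and 32 CPM after bleomycin (2.96 ± 0.22, adjusted p = 3.6e-09). Its difference of -2.57 ± 0.31 (adjusted p = 1.26e-07) was the lowest of the 34 genes. These receptors are paralogs, and how the counting treated reads that fit several genes is not given in the sources used here.

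EDA2R, a receptor of the ectodysplasin family on the X chromosome (66595637 to 66639269), rose after bleomycin from 22.9, 19.4, 25.4 and 23 CPM to 53.9, 52.1, 70.2 and 55.3 CPM (2.49-fold, with an SE of 0.18 on the log2 scale, adjusted p = 1.09e-05). With 4OHT it had 11.8, 20.4 and 21.9 CPM, all below the 30.4, 24.5 and 28.3 CPM of DMSO (-0.71 ± 0.32, adjusted p = 0.103). The difference was -1.97 ± 0.32 (adjusted p = 2.78e-05). PERP, a membrane protein of cell junctions, and PHLDA3, an inhibitor of AKT, were called in neither model. PERP had -0.51 ± 0.32 in OIS and 0.39 ± 0.16 after bleomycin, where its groups did not overlap, and it passed without bleomycin replicate 4 (0.48, adjusted p = 0.0417). PHLDA3 had -0.26 ± 0.48 and 0.40 ± 0.23.

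The levels of both senescent states, set against each other without the DMSO groups, gave the same picture. Between 4OHT-treated ER:RAS cells and bleomycin-treated IMR90 cells, 5 of the 34 genes were higher with 4OHT and 20 lower (48.2% of all genes called, 23.3% higher and 24.9% lower). The 5 were GDF15, PLK3, SERTAD1, SUSD6 and TNFRSF10D. MDM2 differed by -2.27 ± 0.55 (adjusted p = 0.000967) and TNFRSF10D by 2.07 ± 0.15 (adjusted p = 4.97e-13). Both comparisons use the same treated libraries.

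Leaving out 1 library also moved some values past the threshold. In OIS this held for GADD45A without 4OHT replicate 1 or DMSO replicate 2 (-0.90 and -0.84), CYFIP2 without 4OHT replicate 1 (-0.96), and SERTAD1 and TP53INP1 without 4OHT replicate 3 (1.37 and -1.96). After bleomycin it held for SERTAD1 without DMSO replicate 1 (0.74). For the difference it held for FDXR (-1.97) and TP53I3 (-1.70) without 4OHT replicate 1, for TP53INP1 (-1.98) without 4OHT replicate 3, and for RPS27L (-1.31) without ER:RAS DMSO replicate 2. PERP passed without 4OHT replicate 3 or ER:RAS DMSO replicate 2 (-0.96 and -1.06), and ACER2 without either of these or without bleomycin replicate 2 (-2.05 to -1.78). AEN passed without 4OHT replicate 1, ER:RAS DMSO replicate 3, bleomycin replicate 4 or IMR90 DMSO replicate 1 (-1.10 to -0.99).

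Between most replicates the difference in level followed base composition across the genes. Transcript GC content ran from 35.1% for RRM2B to 63.5% for FDXR. Across the 34 genes, Spearman's rho between GC content and the log2 ratio of 4OHT replicate 1 to replicate 3 was 0.81, and that for bleomycin replicates 1 and 3 was 0.83. Across all 14678 genes with a GC value the same libraries gave 0.69 and 0.73, so this was a feature of the libraries and not of the 34 genes. Without regard to sign, rho was 0.5 or more in 15 of the 18 pairs of replicates with the control shRNA. It was weak for bleomycin replicates 1 and 2 (-0.13) and 3 and 4 (-0.24) and for IMR90 DMSO replicates 2 and 3 (0.27). The points share their libraries and are genes, not replicates.

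**Figure D3:**
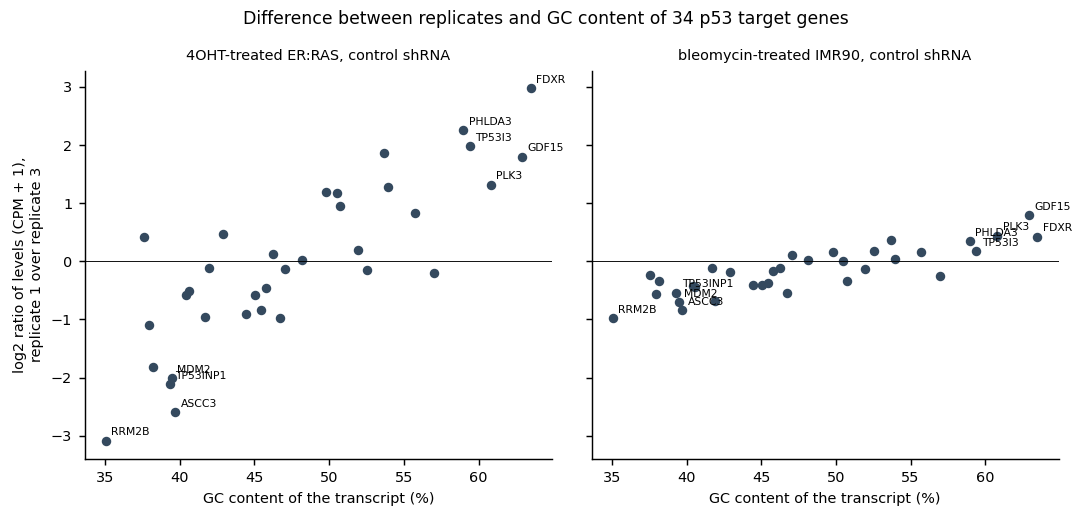
Log2 ratio of the level in replicate 1 to that in replicate 3 (vertical axis) against transcript GC content in percent (horizontal axis) for the 34 p53 target genes, in 4OHT-treated ER:RAS cells and in bleomycin-treated IMR90 cells. In both panels genes of low GC content such as RRM2B lie low and genes of high GC content such as FDXR lie high, with rho of 0.81 and 0.83.

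A fit with a correction for GC content and transcript length was therefore set beside the main one. It lowered the median SE of the 34 genes from 0.32 to 0.20 in OIS, from 0.21 to 0.16 after bleomycin and from 0.38 to 0.28 for the difference. All 17 differences stayed called, and 6 were added: AEN (-0.88), FDXR (-1.44), SUSD6 (0.94), TP53I3 (-1.35), TP53INP1 (-1.48) and ZMAT3 (-0.87). For MDM2 the difference was -1.96 ± 0.16 (adjusted p = 6.8e-12), where the main fit had an SE of 0.73. After bleomycin ASCC3, PHLDA3 and SERTAD1 were added and RPS27L was lost. In OIS the calls of FBXO22 (1.07, adjusted p = 0.207), POLH, SESN1 and XPC (-0.28, adjusted p = 0.121) were lost and 8 were added, among them MDM2 (-0.48, adjusted p = 0.00341), GADD45A (-0.80) and CCNG1 (-0.82) lower and DDB2 (0.61) and SERTAD1 (0.93) higher.

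The senescence responses were measured again in cells with each COPB2 shRNA, which share no library with the control shRNA. The groups of a line were fitted together, and 37 of 42 libraries correlated better on average with their own number. These are therefore not independent repeats. The share of all genes called with all 3 shRNAs is not given here. In OIS 5, 4 and 4 of the 34 genes were higher with the control shRNA, shRNA 1 and shRNA 2, and 7, 8 and 9 were lower. With either COPB2 shRNA 36.9% of all genes were called, 15.4% and 14.9% higher and 21.5% and 22% lower with shRNA 1 and shRNA 2. GDF15, PLK3, SUSD6 and TNFRSF10D were higher with all 3 shRNAs, and BTG2, CMBL, POLH, PPM1D, SESN1, TRIM22 and XPC were lower with all 3. CYFIP2 and PLK2 were called lower only with a COPB2 shRNA. After bleomycin 25, 27 and 23 were higher and none was lower, and 21 were higher with all 3. Of all genes 35.2% and 40% were called with shRNA 1 and shRNA 2, 17.4% and 21.7% higher.

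**Figure D4:**
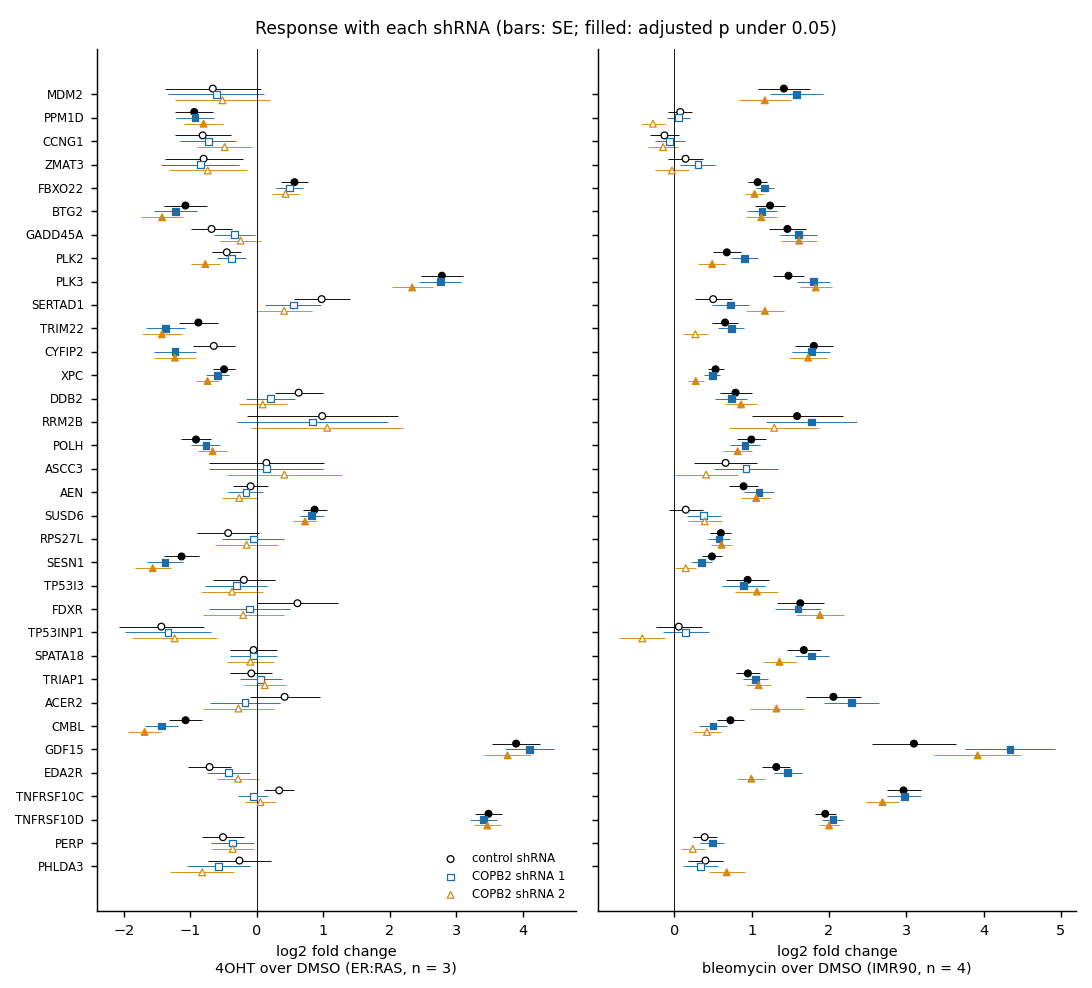
Log2 fold change of each of the 34 p53 target genes in OIS and after bleomycin with the control shRNA, COPB2 shRNA 1 and COPB2 shRNA 2. The 3 values of a gene lie close together in most rows, and the 4 genes higher in OIS with all 3 shRNAs are GDF15, PLK3, SUSD6 and TNFRSF10D.

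The knockdown of COPB2 itself was then asked of the 34 genes. Both guides match the coding sequence of COPB2 on chromosome 3 (GRCh37 positions), in exon 11 and exon 4 of the 22 exons of its main transcript. They are shown because every knockdown value rests on them, 5′ to 3′ with the seed (bases 2 to 8) in capitals, and were matched to the labelled shRNAs by number.
COPB2 shRNA 1, chr3:139088345-139088366: tTAAATATctttacaatgctgt
COPB2 shRNA 2, chr3:139097987-139098008: tAATTGAAcactctaatctgca
COPB2 fell in every state, by 2.93 and 2.75 on the log2 scale in DMSO-treated ER:RAS cells, by 2.28 and 2.11 in OIS, by 2.84 and 2.54 in DMSO-treated IMR90 cells and by 2.23 and 2.24 after bleomycin, with shRNA 1 and shRNA 2.

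None of the 34 genes was called in any of the 8 knockdown comparisons, nor in the 4 tests of whether the knockdown effect differed between senescent and DMSO-treated cells. DESeq2 called 0 as well in all 12. Few genes of any kind were called. With shRNA 1 and shRNA 2 the share of all genes was 0.00699% for both in DMSO-treated ER:RAS cells, 0.14% and 0.224% in OIS, 0.00676% for both in DMSO-treated IMR90 cells and 0.00676% and 0.0744% after bleomycin. It was 0% for the 4 interactions. In OIS the median log2 fold changes of the 5 roles ran from -0.29 to -0.04 with shRNA 1 (all genes -0.07). With shRNA 2 they ran from -0.33 to 0.01 (all genes -0.08). The ranges were -0.17 to 0.02 and -0.13 to 0.02 in ER:RAS cells with DMSO (all genes 0 and -0.005). They were -0.18 to -0.03 and -0.08 to 0.12 in IMR90 cells with DMSO (all genes -0.01). After bleomycin they were -0.11 to 0.06 and -0.13 to -0.05 (all genes 0.01). A common shift was not tested. An unadjusted p under 0.05 occurred for 3 of the 34 genes with shRNA 2 after bleomycin (6.74% of all genes) and for none in the other 11. A missed threshold does not show that there was no effect, and the 95% intervals give the sizes that the data allow. They lay within 1 log2 unit of 0 on both sides for 31 and 32 of the 34 genes in DMSO-treated IMR90 cells and for 31 and 30 after bleomycin, but for 20 and 22 in DMSO-treated ER:RAS cells and 19 and 18 in OIS.

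The widest value of a gene after bleomycin was that of GDF15. It had 672, 407, 389 and 913 CPM with the control shRNA, 655, 443, 349 and 2921 CPM with shRNA 1, and 917, 760, 560 and 1698 CPM with shRNA 2. Replicate 4 was the highest of each group, and the groups overlapped. The log2 fold changes were 0.89 (95% interval -0.16 to 1.94) and 0.74 (-0.31 to 1.78). The value of shRNA 1 rested on its replicate 4: without that library it was -0.32 (-1.07 to 0.44), and 2 of 4 pairs of the same number were higher. With shRNA 2 the value was 0.34 (-0.73 to 1.41) without its replicate 4, and 4 of 4 pairs were higher. Both of these fits kept control replicate 4, the highest control at 913 CPM, so that pair was broken in them. With the replicate number as a block within treatment, the fit described next, GDF15 had 0.44 (0.00096 to 0.87, adjusted p = 0.438) with shRNA 1 and 0.68 (0.25 to 1.10, adjusted p = 0.0647) with shRNA 2, and neither was called. Of the 12 genes of the PERK and ATF4 list, 3 rose with shRNA 2 after bleomycin, and 3 and 4 rose with shRNA 1 and shRNA 2 in OIS. Their part in the GDF15 values was not tested.

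In IMR90 cells the replicate numbers were taken to pair the libraries within a treatment. This was judged from correlations of 0.174 or more, since the labels do not say it. The knockdown was also fitted with the number as a block within each treatment, a fit added after the data were seen. With it, shRNA 2 lowered 3 of the 34 genes after bleomycin. Of all 14783 genes, 229 were called lower and 433 higher (4.48% in either direction). TRIM22 had 83.7, 93.6, 135 and 94.6 CPM in control replicates 1 to 4 and 62.8, 69, 100 and 71.3 CPM with shRNA 2, lower in 4 of 4 pairs (-0.41 ± 0.08, adjusted p = 0.0101, against 0.701 without the block). XPC had 116, 109, 128 and 123 CPM and 103, 83, 106 and 95.6 CPM, again lower in 4 of 4 pairs (-0.29 ± 0.06, adjusted p = 0.0151, against 0.656). TNFRSF10C had 31.3, 23.5, 37.7 and 32 CPM and 27.9, 16.5, 29.8 and 18 CPM, lower in 4 of 4 pairs (-0.45 ± 0.12, adjusted p = 0.0461, against 0.734). With shRNA 1 the same fit gave 0.06 ± 0.08, -0.09 ± 0.06 and -0.01 ± 0.12 for the 3 genes, none called. With shRNA 2 the 3 genes were also not called with a block across both treatments (adjusted p from 0.0999 to 0.271), nor with that block and the GC and length correction (0.0795 to 0.171). The difference between the shRNAs was not tested.

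The regulators of p53 were counted from a separate list of 21 genes. In OIS 1 of the 19 tested rose (CDKN2A, which encodes p16 and the MDM2 inhibitor ARF, 1.60 ± 0.46) and 2 fell, 15.8% called against 35.7% of all genes. MDM4, the inhibitory partner of MDM2, had -1.12 ± 0.57 in OIS (adjusted p = 0.146) and fell by 0.78 after bleomycin (SE 0.29, adjusted p = 0.043). That call was lost in 5 of the 8 fits without 1 library (bleomycin replicate 1 or 2, DMSO replicate 2, 3 or 4, adjusted p from 0.0621 to 0.172).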

How the data were processed

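Poly(A) libraries of 42 samples were placed in 12 groups of cell line, treatment and shRNA by their labels. The authors deposited whole-number read counts for each gene symbol, not normalized. For the making of these counts the sources differ: the study's methods name Tophat, hg19, an Ensembl annotation and HTSeq, and the submitters' processing notes name hg38, DRAGEN, STAR 2.7.8a and DESeq2 1.32.0. Whether strand was used and how reads that fit several genes were counted is not given in the sources used here. MDM2, FBXO22, TRIM22, CYFIP2, POLH, RPS27L, TP53I3, TP53INP1 and GDF15 overlap another gene, so their counts could include or lose its reads. Of 28266 symbols 3476 had no count, 26986 matched RefSeq on GRCh38.p14, the source of positions and promoters, and 25055 matched a GENCODE annotation on GRCh37, the source of length and GC content.

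From the counts, CPM were computed with TMM-scaled library sizes. Genes were filtered with filterByExpr and tested two-sided with the robust quasi-likelihood F-test of edgeR 4.0.16 in R 4.3.3 (limma 3.58.1), in a fit of the 6 groups of each line (14297 and 14783 genes) and a fit of all 42 libraries (15299 genes) for contrasts between lines. There were 21 contrasts. A gene was called at a Benjamini-Hochberg adjusted p under 0.05 over all genes tested. Log2 fold changes carry the SE of the fit. A floor of 3 counts is 0.11 to 0.271 CPM, and it covers counting error only, since reads carry no molecular identifiers. The code was tested on simulated counts.

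The genes, lists and tests were chosen with earlier results of these data known. Full statistics were given to genes called in the difference of responses, to the up to 10 called genes with the largest change in each senescence contrast and to genes called in a knockdown fit, besides named regulators (1 gene of that list is not reported here) and the called genes of a list of other p53 targets with the 5 largest changes in each contrast. Alternatives were DESeq2 1.42.0 (its size factors or its Wald test), no filter, the compared libraries alone, a block for the replicate number, a minimum size of 1 log2 unit, a correction for GC content and length (alone and with the block) and leaving out each library. After the data were seen, a fit without the replicate 4 libraries of bleomycin-treated cells, a block within each treatment and a block shared by both lines were added. Nothing in the labels says that replicates were separate cultures, so p-values measure the spread between these samples, which may be technical. Deviations of same-numbered libraries from their group means correlated at 0.174 or more in every IMR90 pair within a treatment, so the numbers were taken to pair those libraries. In ER:RAS cells the lowest correlation was -0.69, so the numbers were not taken to pair.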

Additional observations from a re-analysis of the deposited data

Results flagged for a closer look

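The difference between the response in OIS and that after bleomycin passed the test for 17 of the 34 genes. Each value is the OIS log2 fold change minus that after bleomycin, from the fit of all 42 libraries. The OIS response was lower by the most for TNFRSF10C (-2.57), CYFIP2 (-2.37), BTG2 (-2.23), GADD45A (-2.04) and MDM2 (-2.02). Values between -2 and -1 were found for EDA2R (-1.97), POLH (-1.84), CMBL (-1.74), SPATA18 (-1.66), SESN1 (-1.56), TRIM22 (-1.46) and PLK2 (-1.07). PPM1D (-0.96), XPC (-0.96) and TRIAP1 (-0.94) differed least among the lower ones. TNFRSF10D (1.61) and PLK3 (1.40) responded more in OIS.

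Single libraries stood apart from the other 3 of their group in 7 of 68 groups tested with Dixon's criterion, which chance alone flags in about 1 of 20 groups. In DMSO-treated IMR90 cells with the control shRNA, replicate 1 was high for BTG2 (61.2 CPM), CYFIP2 (41.6 CPM), POLH (64.6 CPM) and RPS27L (158 CPM), and replicate 3 was high for GADD45A (71.8 CPM). After bleomycin, replicate 3 was high for PPM1D (38.2 CPM) and replicate 1 for TNFRSF10D (455 CPM).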

How the results depend on the processing

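The 25 rises after bleomycin became 24 to 28 under every alternative except a minimum size of 1 log2 unit (14), and 24 to 25 without 1 library. The 12 calls in OIS depended more on the processing. They were 10 with DESeq2 size factors, 10 without the filter, 11 with the DESeq2 Wald test, 16 with the GC and length correction, 21 with the replicate block (7 higher, 14 lower), 22 with block and correction (7 and 15), 3 with only the libraries compared (3 and 0), 6 at that minimum size (3 and 3) and 8 to 11 without 1 library. The cause was not tested. The 17 differences were 14 to 25 otherwise, 26 with block and correction (3 and 23) and 15 to 21 without 1 library. The 25 calls between 4OHT and bleomycin levels became 22 to 26 without 1 library. The comparison of DMSO cells between lines stayed at 0 without 1 library and gave 1 with the correction and 1 with a block shared by both lines, added after the data were seen, which gave 23 differences and 28 calls between levels.

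With shRNA 1 the OIS calls were 21 and with shRNA 2 23 under block and correction, 8 with shRNA 2 at that minimum size, and 9 to 12 and 10 to 12 without 1 library. The bleomycin calls were 16 with shRNA 1 at that minimum size, and 23 to 27 and 20 to 24 without 1 library. The knockdown of shRNA 2 gave 2 calls in OIS with block and correction (DDB2 -0.40, TRIM22 -0.67) and 3 after bleomycin with the block within treatment. All 12 knockdown tests kept 0 calls without 1 library. The block across treatments changed no knockdown call. In ER:RAS cells, between treatments and between lines the labels give the samples only a common number. Within ER:RAS treatments, control and COPB2 shRNA libraries of the same number correlated at -0.69 to 0.93. The main fits leave the number out. Of 42 libraries 37 correlated better on average with their own number.

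Over 116 results for single genes, 1833 fits kept the call, 102 gained and 80 lost it, and none reversed a called value. A value that passed in neither fit changed sign in 51 fits of 17 results, the largest 0.61 (FDXR in OIS). Without the 3 replicate 4 libraries of bleomycin-treated cells the bleomycin and difference counts were 25 and 17. Depth limits ACER2 and TNFRSF10C most, and the spread between replicates limits RRM2B and ASCC3.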

Other observations

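A second list of 50 p53 targets outside the 34 genes was counted beside them. After bleomycin 25 of the 47 tested rose (53.2%, against 15.4% of all genes) and none fell. In OIS 7 of the 43 tested rose and 8 fell, and these shares (16.3% and 18.6%) were near those of all genes (15.5% and 20.2%). The difference of the responses was called for 14, lower in OIS for 13 (27.7%, against 12.1% of all genes) and higher for 1. This list was also chosen with earlier results known. CDKN1A, which encodes p21, had 7332, 4856 and 2831 CPM with 4OHT against 781, 1094 and 637 CPM with DMSO, and 3950, 3393, 3311 and 2229 CPM after bleomycin against 937, 350, 434 and 401 CPM. No libraries overlapped in either line. It rose by 2.47 ± 0.35 on the log2 scale in OIS and by 2.58 ± 0.34 after bleomycin, and the difference was -0.02 ± 0.51 (adjusted p = 0.993).

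FAS, the death receptor, had 7.94, 12.8 and 13.1 CPM with 4OHT against 21.8, 9.82 and 40.7 CPM with DMSO, which overlapped. It rose after bleomycin from 16.9, 22.6, 30.97 and 22.7 CPM to 77.6, 44.9, 126 and 99.8 CPM (1.86 ± 0.32), and its difference was -2.99 ± 0.60 (adjusted p = 0.000378). E2F7, an atypical E2F repressor, was the gene of this list with a larger response in OIS, from 2.34, 2.03 and 2.60 CPM to 51.3, 94.6 and 141 CPM (5.27 ± 0.58), against 2.61 ± 0.44 after bleomycin (difference 2.71 ± 0.65, adjusted p = 0.00252). FUCA1, a lysosomal fucosidase, fell by 3.04 in OIS and rose by 0.87 after bleomycin, and VWCE fell by 1.57 and rose by 1.77. The other largest changes of the list were TLR3 (-5.99) and LIF (3.91) in OIS, and RPRM (5.65), ABCA12 (4.05) and LIF (2.49) after bleomycin.

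Other called regulators of p53 were HIPK2, a p53 kinase (-1.28 in OIS and -0.59 after bleomycin), and KAT5, an acetyltransferase (-1.07 in OIS). After bleomycin PPP1R13L, an inhibitor of p53 (-1.05), and MAPK14, the p38 kinase (-0.33), were lower. TP63, a p53 relative, was called higher after bleomycin (2.36 ± 0.57) at a level under 1 CPM in every library.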
